A study of Mus musculus with 12 samples.

Results

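Adult-only intronic regions of H4K8ac, acetylation of lysine 8 on histone H4, were described in oligodendrocyte progenitor cells (OPCs) of the mouse, glia that divide and can become myelin-forming oligodendrocytes. A member is a region, merged from peaks of 6 libraries that overlapped by at least 1 bp, that held a peak in all 3 adult lists and in no neonatal list, and in which the authors annotated every peak to an intron. Of 98027 merged regions, 7737 were members. They lay in introns of 2304 annotated genes and covered 9.92 Mb. The members were thus chosen by the presence of peaks at each age, so their presence, height and age difference are given as descriptions without a test.

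The libraries came from forebrain cells of mice carrying PdgfrαH2BEGFP, a nuclear green fluorescent reporter of the OPC gene Pdgfra, sorted at postnatal day 5 (neonatal, 3 libraries) or 60 (adult, 3 libraries). Both ages carry the same reporter, and the labels give no treatment and no other allele. The labels name the samples biological replicates and give neither sex nor the number of mice per library. Pdgfra is also active in some fibroblast-like cells, so the sort can hold them.

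H4K8ac is one of several acetyl marks on the histone H4 tail. It neutralises a lysine and is bound by bromodomain proteins, and it is commonly found at active promoters and enhancers. Introns hold many enhancers, and the first intron is often rich in them. In the oligodendrocyte lineage, introns of genes for myelin, cell shape and transcription factors contain enhancers bound by factors such as Sox10 and Olig2.

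The lists differed in length. The neonatal lists held 9097, 31189 and 7353 peaks (replicates 1 to 3), and the adult lists held 72278, 72661 and 77002. Intronic peaks made up 4.64% to 15.5% of the neonatal and 33.5% to 36.1% of the adult lists. Read depth is unknown from these files, so the absence of a neonatal peak is an absence from a list and not a measured absence of the mark. Of 24 OPC genes listed for this work, 22, 24 and 15 had a promoter peak in neonatal and 22, 20 and 21 in adult replicates 1 to 3. Of 24 myelin and oligodendrocyte genes, 7, 14 and 8 had one in neonatal replicates 1 to 3. All 24 had one in each adult list, more than of the OPC genes. Whether the sorted cells included some beyond the progenitor stage was not tested. Depending on the library, the count was 1 or 2 of 16 microglial, 1 to 4 of 16 endothelial and 1 to 9 of 16 fibroblast and pericyte genes. It was 0 to 9 of 16 neuronal, 5 to 12 of 16 astrocyte and 5 to 15 of 16 housekeeping genes.

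Some members contained a RefSeq transcription start, and 5 upstream sequences are shown because the mark at those sites lay over a start that the promoter class of the annotation had not taken up. RefSeq promoter windows of 300 bases (250 before the start and 50 after it, GRCm38.p6) overlapped 45 members, and 44 windows were involved. Of these windows 37 belonged to long noncoding RNA genes and 7 to protein-coding genes, and 6 were windows of the named host itself. The 250 bases before the start are printed 5′ to 3′ on the strand of the gene, in lower case, with matches to the motifs named below in capitals. Tspan14 (a tetraspanin), Kazn (kazrin, a protein of cell junctions) and Aven (an inhibitor of cell death) are protein-coding hosts whose own listed start lay in a member. Gm32968 lies within Gse1, the gene with most members by position. Gm46592 had the highest fold enrichment in adult replicate 1 among the 44.

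Tspan14, chr14:40948210-40948459, minus strand: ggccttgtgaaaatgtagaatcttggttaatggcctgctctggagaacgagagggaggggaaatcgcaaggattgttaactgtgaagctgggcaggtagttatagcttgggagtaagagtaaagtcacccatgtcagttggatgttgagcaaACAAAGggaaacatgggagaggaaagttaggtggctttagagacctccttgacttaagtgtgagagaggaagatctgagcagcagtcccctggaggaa
Kazn, chr4:142215459-142215708, minus strand: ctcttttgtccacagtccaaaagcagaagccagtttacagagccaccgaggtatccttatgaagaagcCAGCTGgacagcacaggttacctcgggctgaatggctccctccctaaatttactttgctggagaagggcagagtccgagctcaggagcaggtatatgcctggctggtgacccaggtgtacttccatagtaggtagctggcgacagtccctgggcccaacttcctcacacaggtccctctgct
Aven, chr2:112571363-112571612, plus strand: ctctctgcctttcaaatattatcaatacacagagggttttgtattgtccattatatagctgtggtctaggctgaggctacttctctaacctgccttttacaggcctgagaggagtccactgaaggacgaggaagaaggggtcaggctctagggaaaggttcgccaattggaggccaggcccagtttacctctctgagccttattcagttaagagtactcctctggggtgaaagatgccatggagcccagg
Gm32968, chr8:120327427-120327676, plus strand: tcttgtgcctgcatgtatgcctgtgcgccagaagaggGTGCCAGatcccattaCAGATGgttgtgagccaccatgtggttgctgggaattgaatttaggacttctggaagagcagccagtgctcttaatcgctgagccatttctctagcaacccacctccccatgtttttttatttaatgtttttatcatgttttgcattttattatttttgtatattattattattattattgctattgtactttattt
Gm46592, chr17:8347909-8348158, minus strand: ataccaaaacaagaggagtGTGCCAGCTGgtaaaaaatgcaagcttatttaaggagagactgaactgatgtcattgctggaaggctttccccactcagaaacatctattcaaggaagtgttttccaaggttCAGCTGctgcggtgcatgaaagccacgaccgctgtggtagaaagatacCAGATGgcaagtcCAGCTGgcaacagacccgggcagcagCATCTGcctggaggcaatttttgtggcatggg

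The letters searched, on both strands, were ACAAAG and ACAATG (Sox), CAGCTG and CATCTG (E-box), TTGGCA (one arm of a nuclear factor I site), CTGGCAC and CTGGTAC (Myrf), GGAATG (TEAD), TGACTCA and TGAGTCA (AP-1) and TGACGTCA (CRE). The Myrf letters and CAGCTG overlap in the Gm46592 sequence, where one run of capitals holds both. Over the 250 bases before the start, E-box letters were present in 21 of the 44 windows (47.7%), against 25.5% of all 32619 windows. Sox letters were present in 25% of the 44 and 24.9% of all windows, and Myrf letters in 9.09% and 5.96%. CRE letters were present in 0 of the 44 and in 1.56% of all windows. Over the same bases the 44 windows had a median GC content of 49.6% (all windows 52.4%). Their median ratio of observed to expected CpG was 0.172 (all windows 0.378). None of the 44 had a CpG ratio above 0.6, against 34.2% of all windows. These matches describe letters only.

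By the rule, each of these members had a peak in every adult list. Fold enrichments, here and below, are the authors' signal values per peak, read as linear folds over their background. The highest peak in a region is given. The member over the Tspan14 start, in intron 1 of 8, reached 5.78, 6.80 and 5.07 (adult replicates 1 to 3). The one over the Kazn start reached 7.23, 8.51 and 5.89, and the one over the Aven start 4.34, 5.96 and 6.41. The member with the Gm32968 start stood higher, at 13.4, 14.5 and 14.5 over 6777 bp. The member with the Gm46592 start reached 14.5, 14.5 and 12.03 over 4522 bp. One miRNA hairpin of the 1005 in the RefSeq table overlapped a member, that of mmu-miR-12197-3p in intron 3 of 4 of Napepld, a phospholipase.

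Being marked in all adult and no neonatal list was about as frequent among intronic regions as in the whole series. Regions with only intronic peaks numbered 36110, of which the 7737 members were 21.4%; of all merged regions 20.4% were in all adult and no neonatal list. The reverse pattern, all 3 neonatal and no adult list, held for 7 intronic regions. A further 1382 intronic regions were in all adult lists and in 1 to 3 neonatal lists, and are called shared intronic regions. These shares describe the rule, applied to lists of unequal length. The part of list length in them was not tested.

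Members were short, with a median width of 933 bp (quartiles 598 and 1531) and a range of 190 to 25768 bp. Shared intronic regions were wider, with a median of 1506 bp. The median of the highest fold was 4.70, 4.78 and 4.86 in adult replicates 1 to 3. Member peaks held 47.6%, 45.6% and 31.3% of the intronic peaks of these lists. Their median width was 351, 390 and 714 bp, against 240, 250 and 277 bp for the other intronic peaks, so adult replicate 3 stood apart in width. Across the 7737 members the log2 folds of the adult replicates had Pearson correlations of 0.610 to 0.643, a description over regions of libraries that share age and annotation.

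Regions just outside the rule were narrower on one side and wider on the other. Intronic regions in 2 adult and no neonatal list numbered 6675, with a median width of 401 bp. Those in 3 adult and 1 neonatal list numbered 1086, with a median width of 1401 bp. Just inside, 405 members (5.23%) had a q-value above 0.01 in their weakest adult list, the q-value being the authors' p-value corrected for the number of positions tested.

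The authors' deposited table of differential sites, each 400 bp long and with a log2 fold change between ages read as adult over neonatal, held a site in 7408 members (95.7%). Where a region held several sites, here and below, the largest log2 fold change was taken. Over the 7408 members the authors' deposited table gave a median of 3.06 (quartiles 2.37 and 3.91, range 1.00 to 8.10) for this value. It was negative in 0 members. Of all sites of the authors' deposited table, 99.4% were positive, so the sign of the members carries no information of its own. The median of all sites in the authors' deposited table was 2.41, over single sites and thus unlike the largest values of regions. Wider regions can hold more sites, so medians of classes that differ in width are not like for like either. In the authors' deposited table shared intronic regions had a median of 1.83 and a site in 64.5%. Regions in 2 adult and no neonatal list had a median of 2.79 and a site in 83.4%, again from the authors' deposited table.

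Most members lay outside the first intron. In intron 1 of the annotated transcript were 2946 members, 38.1% (exact 95% binomial interval 37.0% to 39.2%), and in later introns 4791. Such intervals, here and below, cover counting error only and treat regions as independent. Many members were neighbours in the same host, so the intervals can be too narrow. Introns 2, 3, 4 and 5 held 1589, 948, 500 and 317 members, and 1437 lay in intron 6 or later. The annotated transcripts had a median of 11 introns. No member had peaks in introns of both kinds. The annotation calls peaks within 3000 bp of a start promoter, so introns enter only beyond that distance, and the members lay 3.01 to 360.0 kb from the nearest annotated start (median 14.2 kb).

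The intron position of members was close to that of other intronic regions. Shared intronic regions were in intron 1 in 40.1% (interval 37.5% to 42.7%), regions in 2 adult lists in 37.0% (35.8% to 38.2%), those in 1 adult list in 36.4% (35.7% to 37.1%) and all intronic regions in 36.9%. First and later intron members were alike in width (medians 963 and 911 bp). The authors' deposited table gave them medians of 3.06 and 3.07 in log2 fold change. Within the RefSeq extent of the host, 25.7%, 31.0%, 26.0% and 17.4% of the 7068 members that could be placed fell in the successive 25% portions of the gene from its 5′ end, against 23.3%, 31.1%, 27.9% and 17.6% of 1224 shared intronic regions.

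The rule did not use intron numbers, so the first-intron share of each list was tested over libraries. Of all intronic peaks, 41.4%, 37.6% and 41.1% were in intron 1 in neonatal replicates 1 to 3 and 38.2%, 37.4% and 37.5% in adult replicates 1 to 3. Neonatal replicate 2, the longest neonatal list, lay among the adult values, so the groups overlapped. The means were 40.0% ± 2.09 (SD, n = 3) and 37.7% ± 0.437 (SD, n = 3), a difference of -2.29 percentage points that did not pass an exact two-sided permutation test (p = 0.2, adjusted p = 0.4 over 2 tests, smallest possible p 0.1). At the 341 strongest intronic peaks of each list, adult minus neonatal was 2.83 percentage points, the opposite sign (exact permutation p = 0.6).

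**Figure D1:**
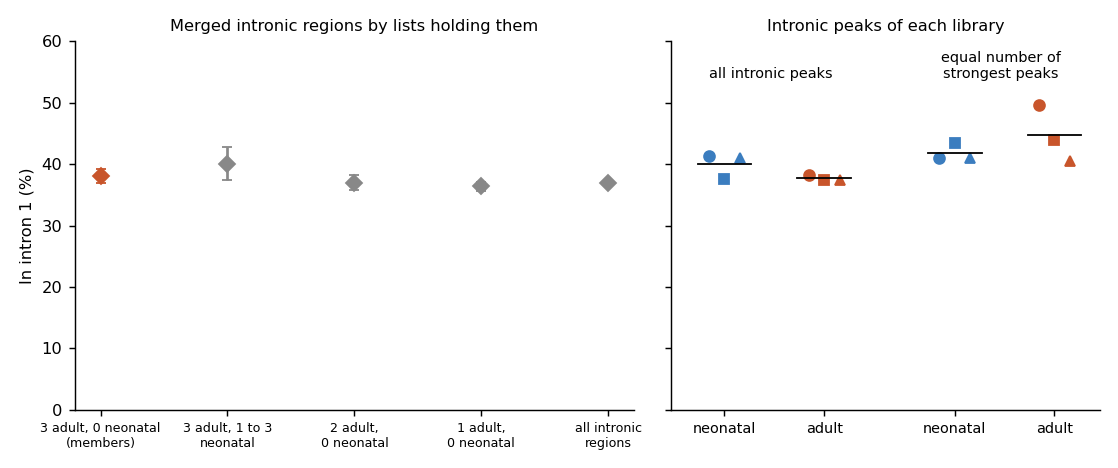
Percentage in intron 1 for merged intronic regions, by how many adult and neonatal lists held them (left, diamonds with exact 95% binomial intervals), and for the intronic peaks of each library (right; blue neonatal, orange adult; circle, square and triangle for replicates 1 to 3; line, mean of 3). Members sit at 38.1% and the other classes between 36.4% and 40.1%. The intervals treat regions as independent and can be too narrow. At 341 peaks a library the adult mean lies above the neonatal one.

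Members lay close to one another. Another member stood within 10 kb of 5253 members (67.9%), and within 5 and 20 kb of 60.3% and 75.6%. The corresponding share within 10 kb was 62.5% of 4516 adult-only distal intergenic regions, 42.7% of 5368 adult-only promoter regions and 30.9% of the 1382 shared intronic regions, each counted within its own class. These classes differ in number, which alone changes such a share. Counting members as the neighbours, 47.8% of shared intronic regions, 60.5% of intronic regions in 2 adult lists and 53.7% of those in 1 adult list had a member within 10 kb.

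Joined across gaps of up to 10 kb, the members formed 4033 stretches. Of these 2484 were single members, 291 held 5 or more members and 39 held 10 or more. The 291 held 2095 members (27.1%). In 99.8% of the gaps of up to 10 kb both members had the same host gene. The median gap between neighbouring members was 11.7 kb and the lower quartile 0.962 kb.

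**Figure D2:**
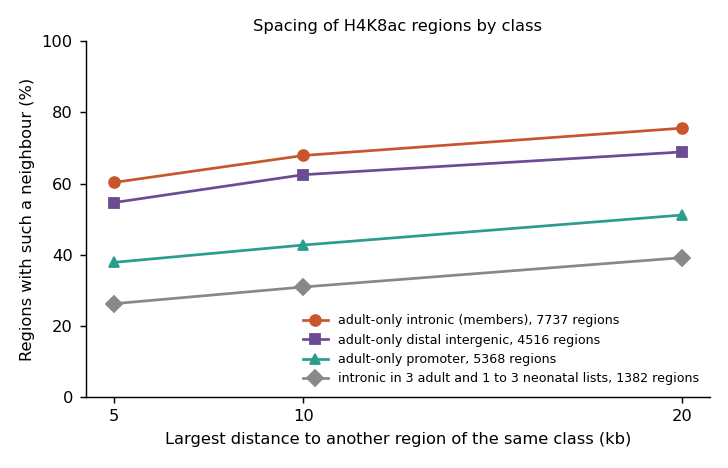
Percentage of regions with another region of the same class within 5, 10 or 20 kb, edge to edge, for 4 classes of merged regions (lines join the 3 distances). Members lie highest at each distance, 67.9% at 10 kb, and shared intronic regions lowest, 30.9%; the number of regions in each class is given in the key.

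Clustering was also measured within each list, on peaks taken without regard to the other age. Of the 341 strongest intronic peaks, 37.8%, 27.9% and 33.7% in the neonatal and 32.3%, 29.9% and 27.6% in the adult replicates had a second within 10 kb. The means were 33.1% ± 5.01 and 29.9% ± 2.35 (SD, n = 3 each), with overlapping groups (difference -3.23 percentage points, exact two-sided permutation p = 0.4, adjusted p = 0.4). With all intronic peaks the shares were 43.8%, 62.5% and 33.7% in neonatal and 85.9%, 86.4% and 86.9% in adult lists, a difference of 39.7 percentage points whose sign is opposite (exact permutation p = 0.1, the smallest possible). The longer lists thus had the higher share, and list length and age cannot be told apart in that form.

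The longest stretch lay in Sik3, a salt-inducible kinase of metabolic signalling. It spanned 80.0 kb (chr9:46017772-46097761, GRCm38) with 26 members, all in intron 1, which covered 67.5% of it. Adult replicates 1 to 3 had 37.5, 42.7 and 55.0 kb of peak there and the 3 neonatal lists had 0. Over the whole of Sik3 the neonatal lists held 0.378, 1.46 and 0.434 kb, all of it annotated as promoter in replicates 1 and 3, and the highest folds were 9.91, 15.3 and 9.62. A promoter peak was thus listed at both ages. The rule allows no neonatal peak in a member, so neonatal values at or near 0 in this stretch and those below largely follow from the choice. Only the gaps between members could hold neonatal peaks. The stretch in Elmo1, a partner of Dock proteins in Rac activation, spanned 78.9 kb with 19 members, all in later introns, and had 28.7, 35.9 and 55.6 kb of adult and 0 kb of neonatal peak. The stretch in Zdhhc14, a palmitoyltransferase, spanned 71.8 kb with 18 members, 5 of them in intron 1. It had 24.3, 25.3 and 38.0 kb of adult peak and, in neonatal replicate 2 alone, 0.14 kb.

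**Figure D3:**
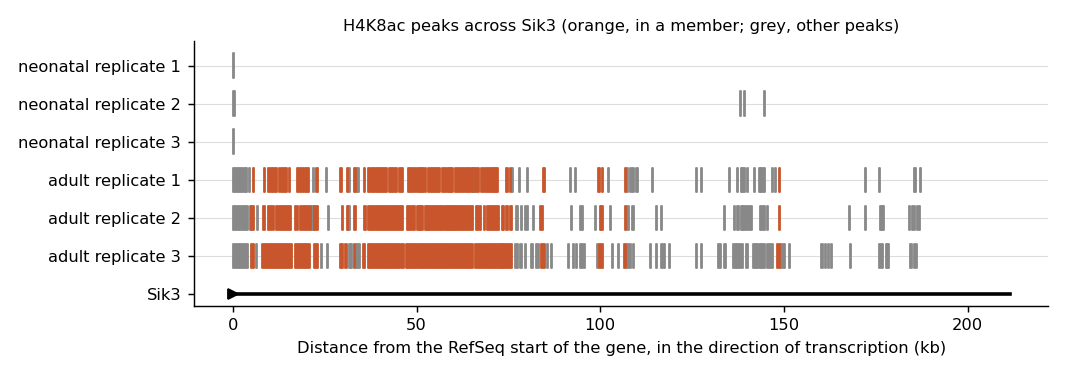
H4K8ac peaks of each library along Sik3, by distance in kb from the RefSeq start of the gene; orange bars are peaks in members, grey bars other peaks, and bars under 0.3 kb are drawn at that width. Neonatal lists show peaks at the start and, in replicate 2, a few farther in; the adult lists fill much of the first 80.0 kb.

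The host gene of a member is the gene of the transcript named in the authors' annotation. By this name the host with most members was ENSMUSG00000092329, for which the lists give no symbol, with 101 members over 4.20 Mb of chromosome 8. Fgfr2, a fibroblast growth factor receptor, was the next with 46. Both counts rest on long annotated transcripts. Of the 101, 97 were in intron 1 of 15 of a single transcript, and 45 of them lay inside RefSeq Gse1. Of the 46, 36 were in intron 2 of 6 of a single transcript spanning members far beyond RefSeq Fgfr2 (chr7:130162451-130266808), which contained 10 members, while Fam53b contained 12. Over all members, 7068 (91.4%) lay inside the RefSeq extent of their named host, 6974 inside exactly 1 protein-coding RefSeq gene and 709 (9.16%) inside none. By annotation name, 9.01% of protein-coding RefSeq genes hosted a member.

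Ranked by RefSeq position instead, a ranking added after the values were seen, Gse1 came first with 45 members. Gse1 encodes a coiled-coil protein found with histone deacetylases. Peaks covered 115, 125 and 151 kb of the gene in adult replicates 1 to 3 and 1.07, 14.2 and 1.075 kb in neonatal replicates 1 to 3. Neonatal replicate 2 was the highest of the neonatal lists and still far under the adult values. All 45 members of Gse1 were called intron 1, from the long transcript named above.

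Zfp536, a zinc finger repressor found in the oligodendrocyte lineage, held 41 members, 14 of them in intron 1. Its gene body had 66.3, 77.2 and 106 kb of adult and 0.738, 5.18 and 0.372 kb of neonatal peak. Pde4b, which degrades cyclic AMP, held 40, all in later introns, with 57.9, 54.7 and 98.0 kb of adult and 0.554, 3.16 and 0 kb of neonatal peak. Dscaml1, an immunoglobulin adhesion molecule, held 39, also all in later introns. Zdhhc14 held 37 and Cdk19, a kinase of the Mediator complex, 31. The following hosts were Slc24a2, a sodium/calcium/potassium exchanger, with 30, Fmnl2, a formin that elongates actin filaments, with 28 and, by RefSeq position, Phactr3, which binds actin and a phosphatase, with 28. Sik3 held 30. The order within this group rests on differences of a few members. In each of the 10 genes every adult list had more peak coverage than any neonatal list, which the choice of genes by members makes likely.

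**Figure D4:**
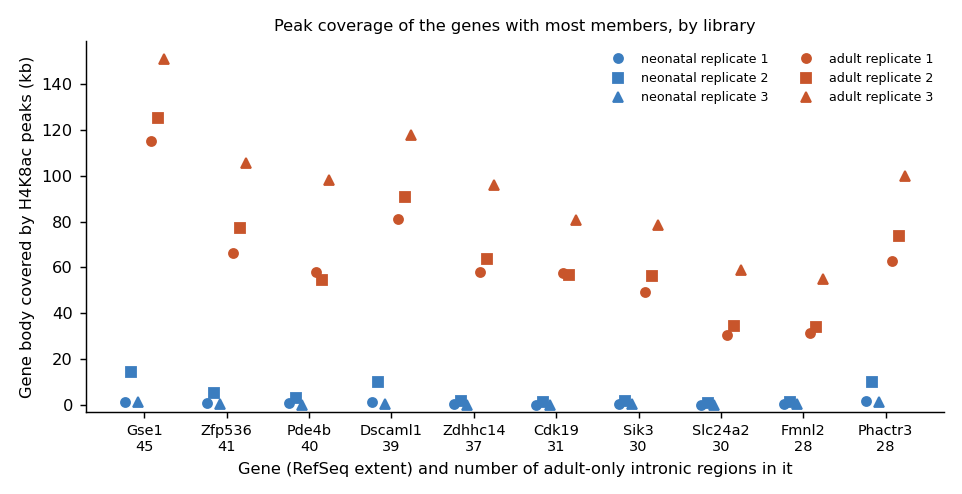
Kilobases of gene body covered by H4K8ac peaks of any class in each library, for the 10 protein-coding genes containing most members by RefSeq position (number of members under each name; blue neonatal, orange adult; symbols by replicate). Adult coverage runs from 30.7 to 151 kb and neonatal coverage from 0 to 14.2 kb, with adult replicate 3 the highest adult library in each gene.

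Members were unevenly shared among hosts. Of 2304 hosts, 1071 (46.5%) held 1 member, 462 held at least 5 and 160 at least 10. The 160 held 34.5% of all members. Hosts were long genes, with a median of 94.5 kb against 17.3 kb for all protein-coding RefSeq genes. Ordered by length in 4 equal groups from the shortest, 0.148%, 0.869%, 6.81% and 28.2% of protein-coding genes hosted a member. Among hosts with at least 5 members, all inside the RefSeq extent, the densest were Cdk19 and the ubiquitin-conjugating enzyme gene Ube2d1, with 23.0 members per 100 kb each. Dusp10, a phosphatase of stress kinases, had 17.0, Tmod1, which caps actin filaments, 16.9 and Agpat4, an acyltransferase of phospholipid synthesis, 16.8. In Ube2d1 the 7 members, all in intron 1, covered 43.3% of a gene of 30.4 kb. Peaks covered 11.4, 13.9 and 19.9 kb of it in adult and 0, 0.67 and 0.431 kb in neonatal replicates 1 to 3.

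The promoters of host genes were often marked at both ages. A promoter peak was assigned to 49.0%, 80.0% and 43.7% of the 2229 hosts with a symbol in neonatal and to 89.1%, 88.4% and 88.7% in adult replicates 1 to 3. For other genes of the lists these shares were 24.9%, 56.2% and 21.9%, and 63.8%, 62.0% and 63.7%. Promoter peaks in all adult and no neonatal list were found for 8.70% of hosts and 9.69% of other genes. Among the 159 hosts with a symbol and at least 10 members, the shares were 66.7%, 96.2% and 56.0% in neonatal replicates 1 to 3. At least 1 neonatal list had a promoter peak for 96.9% of these 159 and for 57.7% of other genes, which rests largely on neonatal replicate 2.

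Ranked by the log2 values of the authors' deposited table, the leading members lay in genes of varied function. That in intron 1 of Trim2, a ubiquitin ligase gene, had 8.10 (adjusted p = 9.36e-12) in the authors' deposited table, and its peak folds were 11.98, 8.87 and 11.7 in adult replicates 1 to 3. That in intron 2 of Gnao1, a G protein subunit abundant in brain, had 8.02 in the authors' deposited table and folds of 13.7, 14.5 and 10.1. Slc4a5 (a bicarbonate cotransporter), Cntn4 (a contactin), Zbtb16 (a zinc finger transcription factor) and Pde4a (another cyclic AMP phosphodiesterase) followed, with 8.01, 7.63, 7.63 and 7.58 in the authors' deposited table. Ankib1 and Daam1 each had 7.50, Zfyve1 7.43 and Dock5, an activator of Rac, 7.39 in the authors' deposited table. All 10 had a single broad peak or a few peaks in each adult list, covering 1016 to 6940 bp.

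The longest member lay in intron 3 of Ppp1r16b, a regulatory subunit of a protein phosphatase. It was 25768 bp long, and peaks covered 21781, 23119 and 25613 bp of it in adult replicates 1 to 3. These were 15, 11 and 2 peaks, so adult replicate 3 joined what the other lists divided. The next were in Rftn1, a lipid raft protein gene (18363 bp), Rnf220, a ubiquitin ligase gene (17902 bp), Mink1, a kinase gene (17252 bp, intron 1), and Kazn (14836 bp, intron 1). In Rnf220 the highest fold was 14.4, 16.4 and 13.9 in adult replicates 1 to 3.

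Genes of the oligodendrocyte lineage were described by lists of 24 genes chosen for this work. The lists were chosen with earlier results of these data known, so their densities, here and below, are descriptions and not independent evidence. Of the myelin and oligodendrocyte genes, 12 of 24 hosted 45 members, 5.65 per 100 kb of gene, against 0.660 per 100 kb over all protein-coding genes. Ugt8a, which makes galactocerebroside, held 12. Its gene body had 16.9, 15.8 and 32.2 kb of adult and 0, 0.679 and 0.24 kb of neonatal peak, the latter annotated as promoter. Ninj2, a nerve injury-induced adhesion protein, held 10, all in intron 1. Mbp, encoding myelin basic protein, held 5 and already carried intronic peaks in neonatal replicates 1 and 2 (4 and 9). Fa2h, which hydroxylates the fatty acids of myelin lipids, held 4, all in intron 1. Mog, Mobp and Cnp held 0. A promoter peak was assigned to all 24 in each adult list and to 7, 14 and 8 in neonatal replicates 1 to 3.

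Of the differentiation regulators 9 of 24 hosted 112 members (3.59 per 100 kb). Besides Zfp536 with 41, Tcf4, an E-protein that pairs with Olig2, held 22, Nfia, a nuclear factor I gene, 16 and Creb5 12. Tcf4, Nfia and Creb5 had 0 members in intron 1. Myrf, Sox10 and Olig2 held 0. Of the polarity, cytoskeleton and process extension genes 13 of 24 hosted 118 members (2.93 per 100 kb). Pard3, a polarity scaffold, held 23, the ankyrin gene Ank2 20, Nfasc, the neurofascin of the node and paranode, 15 and the cytolinker gene Dst 14. Peaks covered 40.0, 40.8 and 56.9 kb of Nfasc in adult and 0.173, 0.602 and 0 kb in neonatal replicates 1 to 3.

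For the next 3 lists the members per 100 kb lay near the 0.660 of all protein-coding genes. Of the axon guidance and adhesion genes 15 of 24 hosted 76 members, 0.519 per 100 kb, with a median gene length of 438 kb. Ephb1, an ephrin receptor, held 19 (16 in intron 1), the synaptic adhesion gene Nlgn1 8, and the netrin receptor genes Dcc 8 and Unc5b 6. All members of Dcc and Unc5b were in intron 1. Of the ion channel and receptor genes 12 of 24 hosted 55 (0.579 per 100 kb), among them Cacna2d3 with 15, Cacna1c and Grik1 with 7 each and Grik2 with 6. Of the OPC genes, with a median length of 67.3 kb, 8 of 24 hosted 43 (0.610 per 100 kb), with Opcml at 15, Pcdh15 and Dscam at 7 each and Lhfpl3 at 6. Pdgfra itself held 0. The OPC genes together had 11, 68 and 9 intronic peaks in neonatal and 141, 155 and 183 in adult replicates 1 to 3.

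Lipid metabolism genes were hosts in 5 of 24 with 25 members (1.32 per 100 kb). Sgms1, a sphingomyelin synthase, held 11, Elovl6, which elongates fatty acids, 7, Pex5l 4 and Abcg1, a sterol transporter, 2. Chromatin and transcription machinery genes were hosts in 6 of 24 with 21 members. Their 0.821 per 100 kb also lay near the 0.660 of all protein-coding genes. The deacetylase gene Hdac4 led with 9, followed by Tet3 with 5, Hdac5 with 3 and Dnmt3a with 2.

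Lists of other cell types and of housekeeping genes, each of 16 genes, were counted in the same way. Per 100 kb of gene, endothelial genes held 0.564 members, microglial genes 0.574 and astrocyte genes 0.553, close to the 0.610 of OPC genes and the 0.660 of all protein-coding genes. Neuronal genes held 0.0656 per 100 kb, with 1 member (in Rbfox3), and fibroblast and pericyte genes 0. Housekeeping genes had 1 member (in Polr2a), 0.436 per 100 kb. Astrocyte genes had 5 in 4 genes, 2 of them in Slc1a3, a glutamate transporter that OPCs can also express. S100b, Acsbg1 and Aldh1l1 had 1 each, and that of Aldh1l1 was not wholly inside RefSeq Aldh1l1. Endothelial genes had 6 in 6 genes (37.5% of the list, against 33.3% of the OPC list), among them Pecam1, Tie1, Eng and Slc2a1. Of the microglial genes only Cx3cr1 hosted members. One of its 2 members lay in RefSeq Cx3cr1 and the other beyond it. Their folds reached 9.40, 10.8 and 12.8 in adult replicates 1 to 3. Promoter peaks were found for 1, 1 and 1 microglial genes in neonatal and 2, 2 and 2 in adult replicates 1 to 3, and for 1, 3 and 1 endothelial genes in neonatal and 4, 4 and 4 in adult replicates. Neuronal genes had promoter peaks in 0, 9 and 1 of 16 in neonatal and 8, 6 and 6 in adult replicates 1 to 3, and astrocyte genes in 5, 12 and 5 and in 10, 8 and 10. The part of other cells in the members was not tested.

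**Figure D5:**
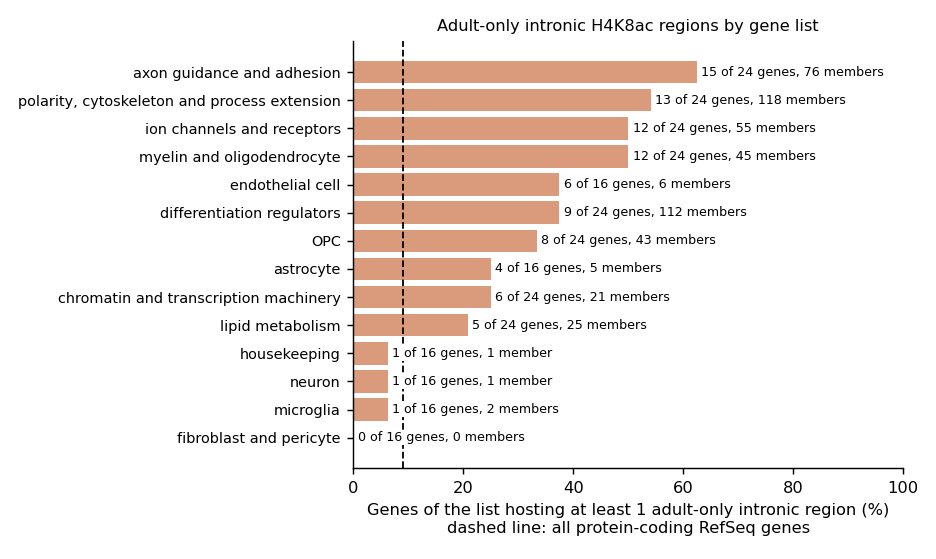
Percentage of the genes of each list that host at least 1 member (bars, with the number of genes and members written beside them); the dashed line marks 9.01%, the share over all protein-coding RefSeq genes. Axon guidance and adhesion genes have the longest bar, 62.5%, and fibroblast and pericyte genes lie at 0; the lists differ in gene length.

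Members were rare on the X chromosome. There were 52 (0.672%), close to the 0.714% of all intronic regions, while 2.76% of adult-only promoter regions lay there.

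The number of members depended on how long the adult lists were. Limited to their 31189 strongest peaks, the length of the longest neonatal list, the adult lists gave 2048 members, of which 39.0% were in intron 1 and 45.8% had another member within 10 kb. Merging peaks within 1000 bp gave 4223 members and lowered the share with a neighbour to 35.7%, and requiring peaks of each list to cover 50% of the region gave 4080 members.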

How the data were processed

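H4K8ac was measured by ChIP-seq in 3 neonatal and 3 adult libraries. The 6 input libraries were not analysed here. Per the submitters' processing notes, Trim Galore, Bowtie2 2.4.5, SAMtools, deepTools, MACS2, DiffBind and ChIPseeker and the build GRCm38 were used; their settings are not given in the sources used here. Each library has its own deposited peak list which, per the file headers, gives a score, a fold enrichment (a linear ratio), −log10 p and −log10 q per peak, and an annotation; the largest q-value of each list was 0.0427 to 0.0489. The authors' deposited table of differential sites holds a p-value (raw and adjusted) and a log2 fold change for every site, without library values. Starts in the peak lists count from 0 and were raised by 1.

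Peaks overlapping by 1 bp were merged with Python 3.11.15, numpy 2.4.6, pandas 2.3.3 and scipy 1.17.1. Members, intron numbers, hosts and gaps were read from the annotation. Gene extents and sequences are from RefSeq (GRCm38.p6), and 2132 of 2304 hosts matched by symbol. Shares were compared between ages by exact permutation of 3 against 3 libraries (20 arrangements). Named genes were the 10 hosts with most members, the 5 densest, the 10 members with the largest log2 fold change, the 5 longest, the 3 longest stretches and up to 4 genes per list. The members and lists were chosen with earlier results of these data known. The code was tested on simulated regions. A planned comparison of GC content was not run because no genome sequence was used here. Alternatives were other merging, thresholds, distances, list lengths, libraries left out and a replicate block.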

Additional observations from a re-analysis of the deposited data

How the results depend on the processing

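The number of members was 7737 and stayed within 1.5 times of that except with peaks merged within 1000 bp (4223), with 50% of the region covered by each list (4080) and with adult lists limited to 31189 peaks (2048). Under these 3 settings in turn the share with another member within 10 kb was 35.7%, 54.2% and 45.8%, against 67.9%, and the authors' deposited table gave a median log2 fold change of 3.11, 2.97 and 3.40, against 3.06. Merging within 1000 bp put 36.0%, 50% coverage 39.5%, a majority of intronic peaks 35.9% and placement inside the RefSeq extent of the host, an alternative chosen after seeing the data, 36.9% of members in intron 1, against 38.1%. Peaks with a q-value under 0.005 gave 66.0% with a neighbour, and distances of 5 and 20 kb gave 60.3% and 75.6%. Leaving out each library gave 7744 to 11541 members, 37.7% to 38.4% in intron 1, 67.9% to 77.0% with a neighbour and a median of 2.95 to 3.06. The adult minus neonatal difference in first-intron share was -3.49 to -1.61 percentage points with a library left out (exact permutation p 0.1 to 0.3), and that in neighbouring peaks -5.87 to -0.88 (p 0.2 to 0.8). At 341 peaks the former was 2.83, and with all intronic peaks the latter was 39.7, both reversed. With the replicate block, an exact sign-flip test over 3 pairs, the differences of -2.29 and -3.23 had p = 0.25, the smallest possible, and p = 0.5. The numbers name replicates only. Same-numbered libraries had correlations of their deviations from the age means of -0.0507, 0.0454 and 0.0912 over intronic regions. Touching peaks merged (7735 members) or members overlapping RefSeq promoter windows left out (7692), both chosen after seeing the data, left the shares within their counting intervals. The causes of these shifts were not tested. GC content and its alternatives were not run.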
